A study of Mus musculus with 2 samples.

Results

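Grsf1, Mllt6, Tcfe3, Rbbp7 and Lypla1 carried some of the highest enrichments of Tcf3-immunoprecipitated DNA in mouse embryonic stem cells, and were picked to describe strong peaks outside GC-rich DNA. They are represented by the 154 non-control spots of 474380 whose array gene name is one of these 5, which is 5 of 17177 gene names on the arrays. Of these spots 34 belonged to Grsf1, 37 to Mllt6, 27 to Tcfe3, 35 to Rbbp7 and 21 to Lypla1, and none had a name shared with another gene. Tcfe3 is the array's name for the gene now called Tfe3. The genes were selected on their log2 ratios of immunoprecipitate over input, that is on peak height, so heights, widths and ranks below are descriptions without a test. The description as lying outside GC-rich DNA held for 4 of the 5 genes and not for Lypla1, whose highest probes had a mean GC content of 72.6%.

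The cells were E14, a mouse embryonic stem cell line, grown without feeder cells and carrying no stated genetic change or treatment. Immunoprecipitated DNA was labelled with Cy5 and input DNA, the same kind of chromatin without immunoprecipitation, with Cy3, and the 2 were hybridised together on each of 2 Agilent promoter arrays that carry different probes. Each gene was therefore measured on 1 array only, without a replicate or a control immunoprecipitation, and this small number of arrays sets the precision. The labels list antibodies to several proteins for the study as a whole, and Tcf3 is taken as the precipitated one from the sample titles. Chromatin fragments averaged 500 bp, per the labels. Array 1 carried Grsf1 and Lypla1 and array 2 carried Mllt6, Tcfe3 and Rbbp7. On array 1 the immunoprecipitate was well above background for 69.1% of probes and the input for 97.8%. On array 2 these shares were 48.1% for the immunoprecipitate and 92.0% for the input.

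Tcf3 (current symbol Tcf7l1) binds DNA as a member of the Tcf/Lef family, which carries Wnt signals to target genes. In embryonic stem cells it is known mainly as a repressor that restrains the genes of the pluripotent state. Family members bind a short sequence built around CTTTG. In a chromatin immunoprecipitation, DNA is broken into random fragments around a bound site, so the signal of a single site spreads over neighbouring probes and falls away on both sides. Many mouse gene starts lie in CpG islands, stretches of DNA rich in G, C and the dinucleotide CG.

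The 5 genes were grouped by peak height, not by pathway. Grsf1 encodes an RNA-binding protein that recognises G-rich RNA and works in mitochondrial RNA handling. Mllt6 encodes AF17, a PHD finger protein first known as a fusion partner of the leukaemia protein MLL. Tfe3 is a basic helix-loop-helix transcription factor of the Mitf family that is held back by folliculin. Rbbp7 encodes a histone-binding WD40 protein that is shared by the NuRD, Sin3 and Polycomb repressive complexes. Lypla1 encodes a thioesterase that removes palmitate from proteins.

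The probe sequences are the base composition on which the description rests, and are printed as the arrays list them, in lower case. Distances are from the centre of the middle probe of the highest group of neighbouring probes, in the direction of rising array coordinates. No source used here names the genome build of these coordinates. Probes that could be matched to RefSeq promoters read on the plus strand, whichever strand the gene lies on. For the first 4 genes capitals mark CTTTG or its reverse complement CAAAG. The Grsf1 peak was covered by 5 enriched probes between chr5:88619399 and chr5:88620038.
Grsf1 at -311 bp (chr5:88619399-88619457): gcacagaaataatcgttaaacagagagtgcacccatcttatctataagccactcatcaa
Grsf1 at -134.5 bp (chr5:88619577-88619632): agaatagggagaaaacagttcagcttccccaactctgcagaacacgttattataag
Grsf1 at 0 bp (chr5:88619711-88619767): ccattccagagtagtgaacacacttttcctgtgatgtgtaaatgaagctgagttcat
Grsf1 at 153 bp (chr5:88619870-88619914): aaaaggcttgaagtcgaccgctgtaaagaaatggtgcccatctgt
Grsf1 at 271 bp (chr5:88619982-88620038): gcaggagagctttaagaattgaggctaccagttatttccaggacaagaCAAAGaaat
The Mllt6 peak also had 5 such probes, between chr11:97770772 and chr11:97771605.
Mllt6 at -430.5 bp (chr11:97770772-97770816): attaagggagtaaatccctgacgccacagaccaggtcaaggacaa
Mllt6 at -136.5 bp (chr11:97771066-97771110): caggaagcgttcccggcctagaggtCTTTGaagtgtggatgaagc
Mllt6 at 0 bp (chr11:97771199-97771250): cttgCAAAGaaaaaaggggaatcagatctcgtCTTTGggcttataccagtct
Mllt6 at 242.5 bp (chr11:97771440-97771494): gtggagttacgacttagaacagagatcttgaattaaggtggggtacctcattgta
Mllt6 at 356 bp (chr11:97771556-97771605): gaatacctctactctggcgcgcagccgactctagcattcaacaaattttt
The peaks of Tcfe3 (chrX:6197922 to chrX:6198310) and Rbbp7 (chrX:157530508 to chrX:157530902) lay at the edge of what was tiled, with 3 probes each.
Tcfe3 at -338 bp (chrX:6197922-6197975): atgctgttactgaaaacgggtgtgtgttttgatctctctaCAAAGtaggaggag
Tcfe3 at -123 bp (chrX:6198137-6198190): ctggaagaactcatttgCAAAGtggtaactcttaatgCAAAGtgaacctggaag
Tcfe3 at 0 bp (chrX:6198263-6198310): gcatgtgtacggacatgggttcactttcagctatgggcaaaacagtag
Rbbp7 at 0 bp (chrX:157530508-157530567): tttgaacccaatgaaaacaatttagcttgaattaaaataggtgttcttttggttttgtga
Rbbp7 at 163.5 bp (chrX:157530676-157530726): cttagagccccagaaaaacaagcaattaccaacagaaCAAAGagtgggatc
Rbbp7 at 335 bp (chrX:157530843-157530902): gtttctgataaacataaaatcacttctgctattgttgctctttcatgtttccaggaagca
In Lypla1 (chr1:4803228 to chr1:4804068) capitals mark the dinucleotide CG instead, since its leading probes are rich in it.
Lypla1 at -237 bp (chr1:4803228-4803272): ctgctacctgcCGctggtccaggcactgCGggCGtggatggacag
Lypla1 at -125 bp (chr1:4803340-4803384): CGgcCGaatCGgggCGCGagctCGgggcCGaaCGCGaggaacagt
Lypla1 at 0 bp (chr1:4803465-4803509): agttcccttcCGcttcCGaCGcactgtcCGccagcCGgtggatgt
Lypla1 at 135 bp (chr1:4803600-4803644): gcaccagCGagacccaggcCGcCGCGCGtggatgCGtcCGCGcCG
Lypla1 at 357.5 bp (chr1:4803816-4803873): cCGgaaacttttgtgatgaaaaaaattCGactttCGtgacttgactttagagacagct
Lypla1 at 551.5 bp (chr1:4804009-4804068): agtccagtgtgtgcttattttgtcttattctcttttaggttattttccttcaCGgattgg

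Values are log2 ratios of immunoprecipitate over input, centred so that the median probe of each array lies at 0. The height of a peak is the highest mean over a probe and its nearest neighbour on each side, here called a set. It is given with the SD among its own probes, which measures how neighbouring probes scatter and says nothing of the error between experiments. A probe was called enriched when its set mean and single probes passed fixed probabilities on the scatter of each array. All 5 genes were called, which follows from how they were chosen, against 15.2% of all 17177 genes. That share pools arrays that differed in calls, with 642 called probes on array 2, which holds 3 of the 5 genes, and 5806 on array 1. Of these called probes 0.312% on array 2 and 55.5% on array 1 had surrogate immunoprecipitate values, and their median GC content was 62.2% on array 2 and 35% on array 1. With only spots whose 2 channels were both measured, without surrogates, they were called as well, against 14.9% of 16995 genes.

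Grsf1 had the highest set mean of all genes, 4.12 ± 0.73 (SD, 3 probes; chr5:88619577-88619914), a 17.4-fold excess of immunoprecipitate over input. The ratios of its 5 peak probes were 2.10, 3.44, 4.05, 4.88 and 3.42 in order along the chromosome. They rose from one flank to a single top and fell again, with no low probe in between. The next probe before the peak read 0.18, and the next one after it read 0.87 with a surrogate immunoprecipitate value, which the software writes where a spot is not above background. The top probe, at 153 bp, was the probe with rank 3 of array 1 and had a 29.5-fold excess.

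Mllt6 formed a plateau rather than a point, with a set mean of 3.30 ± 0.58 (SD, 3 probes; chr11:97771066-97771494), a 9.86-fold excess. Its 5 probes read 2.09, 3.92, 2.77, 3.22 and 3.57. The highest was the second from one end and the next highest the last at the other end, with lower probes between them. That last probe carried the software's mark for an outlying Cy5 background. The nearest probes outside the plateau read -0.20 before it and -0.22 after it.

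Tcfe3 was still rising where its tiled region ended. Its last 4 probes read -0.77, 1.75, 2.82 and 3.64, and the next probe on the array lay 22957 bp further on. The set mean, 3.23 ± 0.58 (SD, 2 probes; chrX:6198137-6198310), a 9.38-fold excess, thus came from the edge of the tiled DNA. Its last probe carried the same mark, and without marked spots the height of Tcfe3 was 2.29.

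Rbbp7 gave the mirror image, a peak that began at the edge of a gap. Its probes read 2.86, 3.44 and 1.46 and then 0.46 and -0.42, so that the signal fell away on the side that was tiled. The last 2 of these values were also from surrogate immunoprecipitate signals. On the other side the nearest probe lay 1123 bp away and read -0.30 with a surrogate immunoprecipitate value. The set mean was 3.15 ± 0.41 (SD, 2 probes; chrX:157530508-157530726), an 8.89-fold excess.

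Lypla1 was unlike the others in shape and in composition. Its 4 leading probes read 2.30, 2.92, 2.47 and 3.58, with a set mean of 2.99 ± 0.56 (SD, 3 probes; chr1:4803340-4803644), a 7.94-fold excess. The next probe fell to -0.67, with a surrogate immunoprecipitate value, the one after it stood at 3.42, and the following one was at -1.03. Thus a single probe of 36.7% GC rose between a pair of neighbours below 0, a shape that the highest peaks of the other 4 genes did not have. The probe at 3.58 carried that mark too, and without marked spots the height of Lypla1 was 2.57. The probe at -0.67 counted as called only because both of its neighbours were high.

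**Figure D1:**
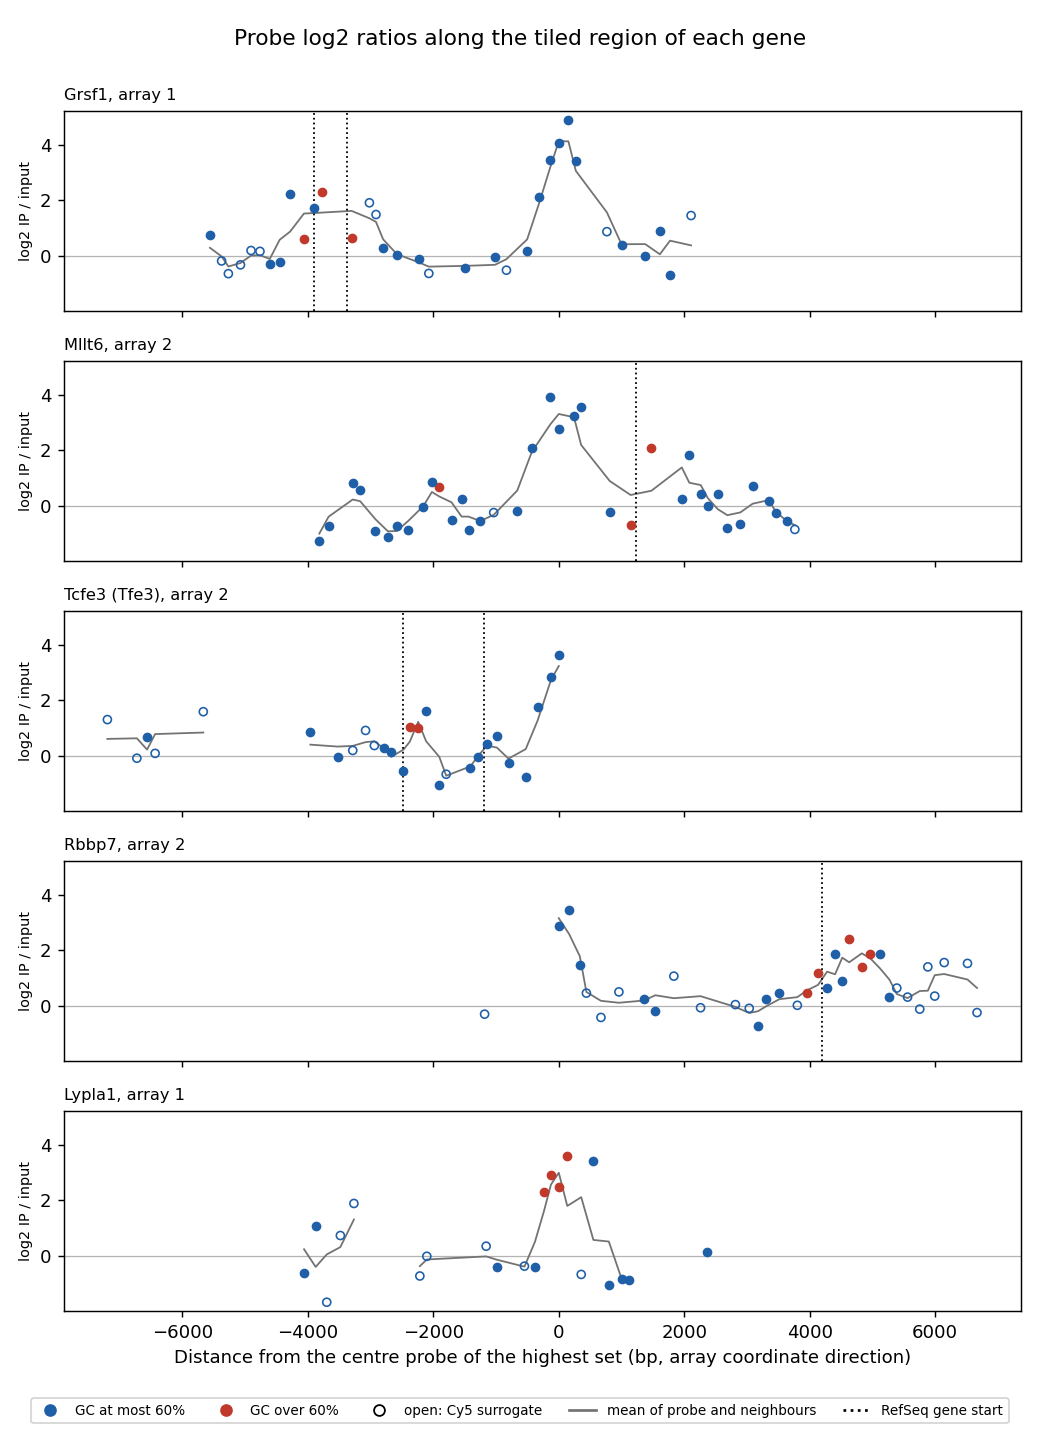
Log2 ratio of immunoprecipitate over input (vertical axis) for every probe of the 5 genes against distance in bp from the centre of the highest set (horizontal axis), with the running set mean as a line, RefSeq gene starts dotted, probes over 60% GC in red and surrogate values as open circles. Grsf1 and Mllt6 show whole peaks of lower-GC probes, Tcfe3 and Rbbp7 peaks cut by the end of the tiling or by a gap, and Lypla1 a block of red probes followed by a single high probe at 551.5 bp.

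Among called genes the heights of Grsf1, Mllt6, Tcfe3, Rbbp7 and Lypla1 had ranks 1, 5, 6, 10 and 20. The ranks of Tcfe3 and Rbbp7 depend on where the tiling stopped, since their heights are means of 2 probes at an edge. The full sets of 3 probes next to the edge had means of 2.74 in Tcfe3 and 2.59 in Rbbp7. Outside the peaks the median probe was closer to the level of the array, though single probes were not. The median ratio of probes more than 1000 bp from the centre was 0.16 in Grsf1 (25 probes), -0.26 in Mllt6 (30 probes), 0.29 in Tcfe3 (21 probes), 0.46 in Rbbp7 (29 probes) and -0.02 in Lypla1 (11 probes). Single probes there, near the gene starts, reached 2.28 in Grsf1 and 2.42 in Rbbp7, and both were called. In Rbbp7 14 of the 24 such probes of at most 60% GC had surrogate immunoprecipitate values.

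Width was measured between the points where the running set mean crossed 0.5 of the peak height, on the log2 scale. It was 891 bp in Grsf1, 1023 bp in Mllt6 and 686 bp in Lypla1. For Tcfe3 (287 bp) and Rbbp7 (352 bp) these are lower bounds, since one side was not tiled. Among the highest sets of all called genes, taken from spots measured in both channels, 874 had at most 60% GC, and 516 of these had both sides tiled and a median width of 739 bp, with quartiles of 589 and 1024 bp. On the same spots Grsf1 was 947 bp wide and Mllt6 1067 bp. The median spacing of probes, 183 bp on array 1 and 182 bp on array 2, limits how finely a width can be read. With single-probe values in place of set means the widths were 727 bp in Grsf1, 993 bp in Mllt6 and 493 bp in Lypla1, all narrower. The bounds then became 325 bp in Tcfe3, which is wider, and 312 bp in Rbbp7.

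Gene starts were placed by exact matches of array probes in RefSeq promoter sequences (build GRCm38.p6), so that distances are counted on the array's own coordinates. The peak of Grsf1, a gene on the minus strand, lay 3370 and 3909 bp upstream of its pair of starts. The other 3 genes with a matched start lie on the plus strand. That of Rbbp7 lay 4197 bp upstream and that of Mllt6 1227 bp upstream of their single starts. The peak of Tcfe3 lay downstream, 2476 and 1194 bp past its starts and thus on the side of the transcribed region. For Lypla1 no RefSeq promoter was matched, so its peak has no distance here. The 4 peaks of lower GC content therefore lay away from the gene starts, and in none of them did the highest set include a probe that matched a promoter.

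Probes over 60% GC read lower than the peak in Grsf1, Mllt6, Tcfe3 and Rbbp7, and formed the peak in Lypla1. In Grsf1 the 3 probes over 60% GC read 0.61, 2.28 and 0.66, below the 4.88 of its top probe in DNA of 46.7% GC. Of these 3, the last 2 were called. The one at 2.28 passed the limit for a single probe. The one at 0.66 was called only through its neighbours, at 2.28 and 1.91, the latter with a surrogate immunoprecipitate value. In Rbbp7 the 5 probes over 60% GC ranged from 0.46 to 2.42 with a median of 1.38, and 1 of them was called. Tcfe3 had 2 such probes, at 1.05 and 1.01, and Mllt6 had 3, at 0.67, -0.68 and 2.06, none of them called in either gene. After subtraction of the median of their GC bin the 3 probes of Grsf1 read -0.50, 0.40 and -0.90 and those of Mllt6 -0.59, -1.77 and 1.55. In each of these 2 genes 2 of 3 thus lay below probes of like GC content. The 2 probes of Tcfe3 lay above such probes, at 0.67 and 0.63. Those of Rbbp7 read -0.72, 0.51, 1.75, 0.03 and 1.36, all but the first above probes of like GC content. In these 4 genes the probes of highest GC content were thus not the most enriched ones, whereas in Lypla1 the 4 probes over 60% GC, from 2.30 to 3.58, held the top.

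Base composition separated the same genes. The 14 called probes of at most 60% GC in Grsf1, Mllt6, Tcfe3 and Rbbp7 had GC contents between 28.3% and 55.6% with a median of 42.1%, close to the median of 40.4% on both arrays. They held 13 CG dinucleotides in all. The highest sets had a mean GC content of 42.7% in Grsf1, 46.6% in Mllt6, 44.3% in Tcfe3 and 35.7% in Rbbp7. The set of Lypla1 alone held 23 CG dinucleotides in 3 probes.

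On both arrays the median log2 ratio varied with GC content, and heights are therefore set beside sets of like mean GC content. The set of Grsf1 was the highest of 66349 sets on its array within 2.5 percentage points of its GC content, that of Mllt6 the highest of 41367 and that of Rbbp7 the highest of 65638. The set of Tcfe3 ranked second, with 2 of 54886 sets as high. Sets of 2 and of 3 probes were ranked together. For Rbbp7 the mean GC content describes neither of its 2 probes, which have 28.3% and 43.1% GC. Their bin medians were 1.40 and -0.41, while the sets ranked with Rbbp7 had a median of 0.45. Its first place is therefore not a comparison with probes of like GC content. For Lypla1 7 of 475 sets were as high, and the median of these 475 sets was already at 1.56, against -0.14 for the sets like that of Grsf1. With the median ratio of each GC bin subtracted, the heights were 4.35 ± 0.58 (SD) in Grsf1, 3.55 ± 0.37 in Mllt6, 3.57 ± 0.59 in Tcfe3, 2.66 ± 1.69 in Rbbp7 and 1.61 ± 2.05 in Lypla1. The 2 probes of the Rbbp7 set then read 1.46 (28.3% GC, with a bin median of 1.40) and 3.86. Under this subtraction the highest set of Lypla1 moved to the one centred on the probe at 357.5 bp, which has 51.5% GC and includes the probe at 551.5 bp. The highest set of Mllt6 moved as well, to one of 43.4% GC, while its set named above read 3.54.

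**Figure D2:**
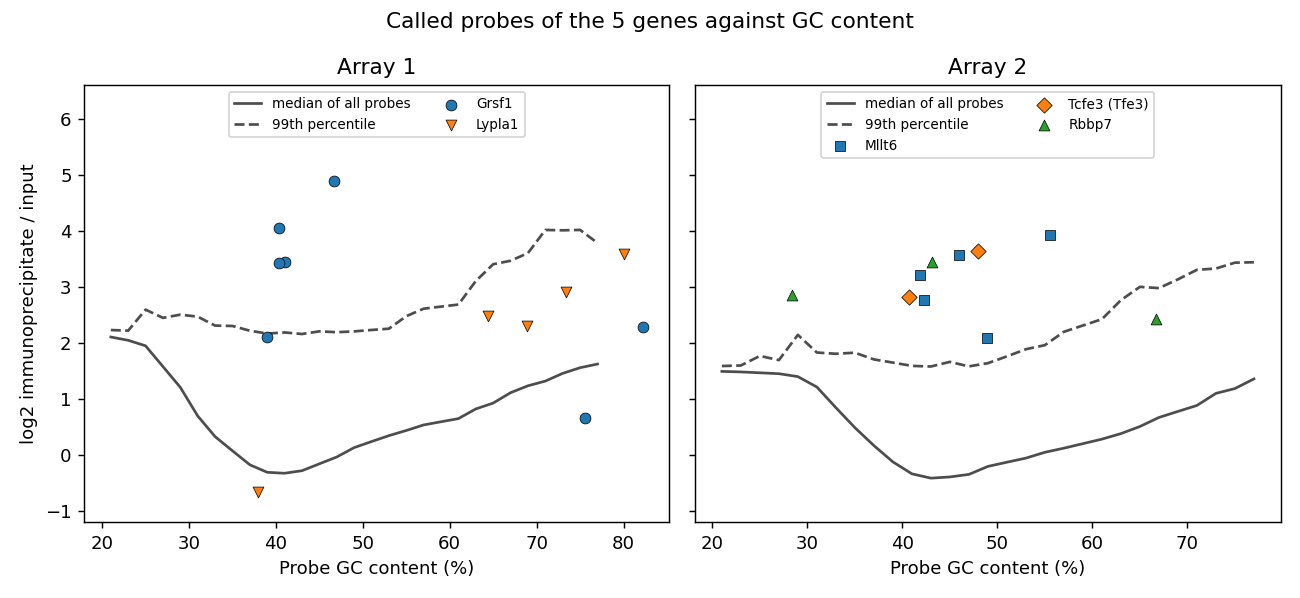
Log2 ratio of immunoprecipitate over input (vertical axis) of the called probes of the 5 genes against their GC content in percent (horizontal axis), one panel per array, with the median (solid line) and 99th percentile (dashed line) of all probes in GC bins. The called probes of Mllt6 and Tcfe3 and 4 of the 5 peak probes of Grsf1 lie above the dashed line at GC contents where the median is below or near 0. The GC-rich probes of Lypla1 up to 73.3% GC lie under it, and the one at 80% GC lies beyond the end of the line.

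The ratio rests on the readings of both channels. At the Grsf1 peak the immunoprecipitate read 6667, 28513, 52017, 26210 and 7664 intensity units, and the input 1834, 3112, 3718, 1050 and 847. Both channels had their highest reading of the 5 at the middle probe, while the ratio was highest at the next one. Probes differ in brightness, so these levels describe single probes.

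Set beside all probes of like GC content, the input of the 14 lower-GC probes named above was in the upper part of its bin in 14 of 14, with between 0.429% and 49.3% of the bin's probes as bright. For all 1632 called and measured probes of at most 60% GC the median of that share was 48.9%, and for all 260109 measured probes in that GC range 35.6%. The part of a brighter input, which lowers the ratio, in these values was not tested.

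**Figure D3:**
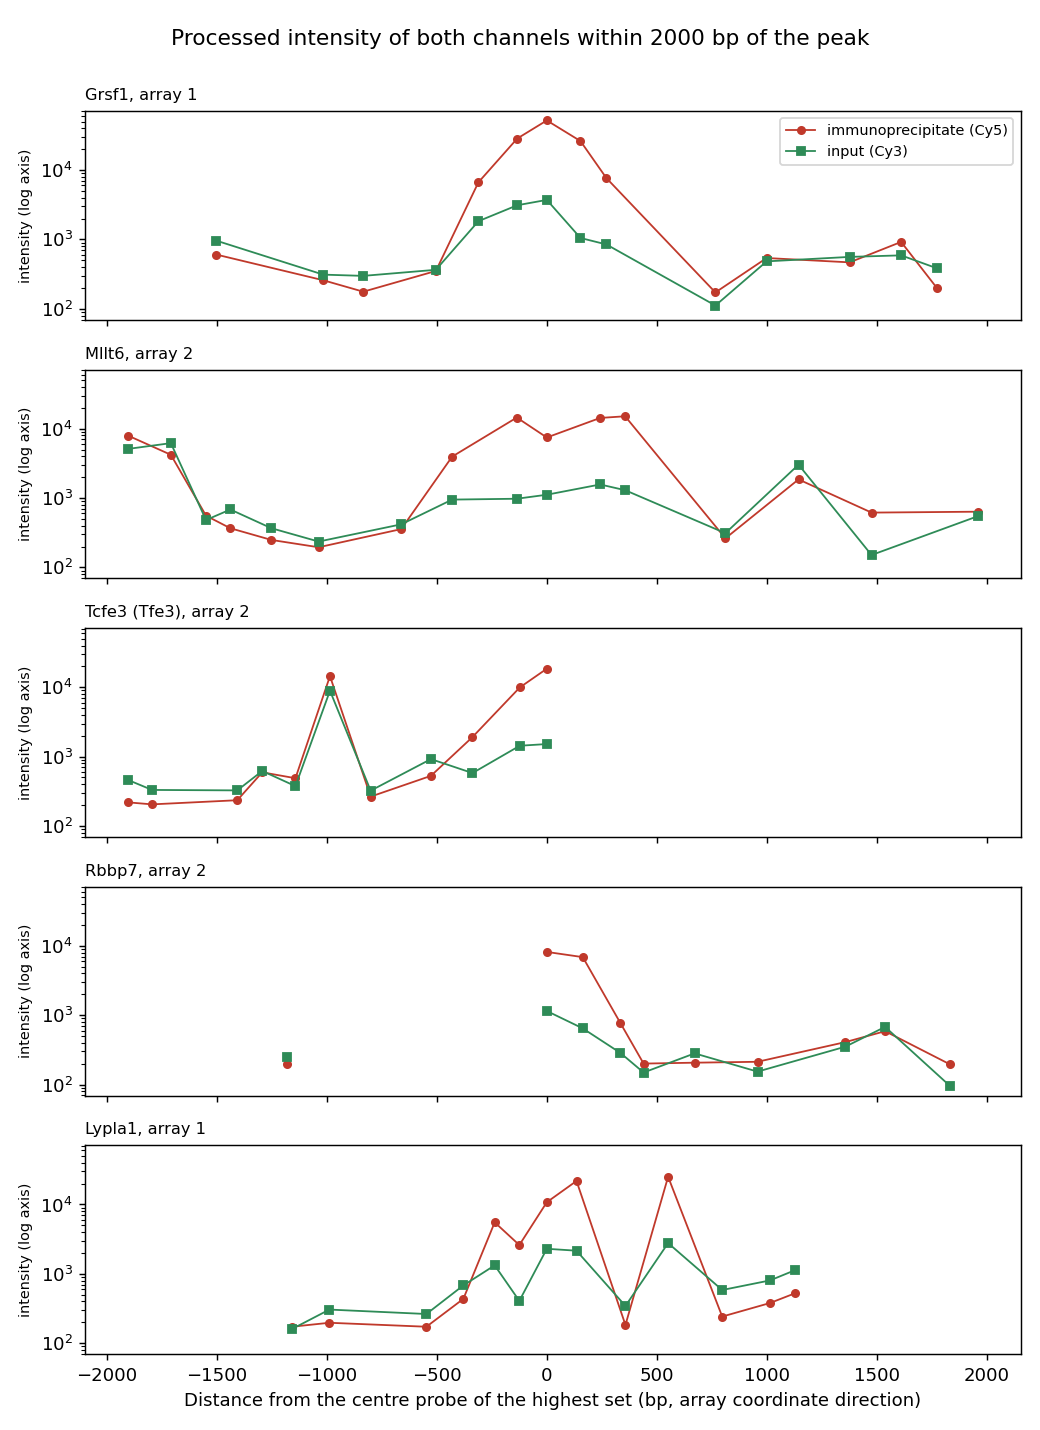
Processed intensity on a log axis (vertical) of immunoprecipitate (Cy5, circles) and input (Cy3, squares) for probes on either side of the centre of the highest set (horizontal axis, bp), one panel per gene. The immunoprecipitate reaches 52017 units at the middle of the Grsf1 peak, where the input has its own maximum of 3718 units, and Lypla1 alternates between high and low probes in both channels.

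The Tcf/Lef core CTTTG, looked for on either strand, was found in 5 of the 17 called probes of Grsf1, Mllt6, Tcfe3 and Rbbp7 and in 0 of the 5 of Lypla1. This core was added after the sequences were seen, and 17.2% of all 474380 probes hold it. Of the longer forms, CTTTGA (4.92% of all probes) occurred in 1 called probe, in Mllt6, and CTTTGT (5.48%) in 2, in Grsf1 and Rbbp7. These forms contain the core and overlap it. No called probe held ACAAAGG (1.22% of all probes), CTTTGATC (0.217%) or the octamer ATGCAAAT (0.361%). Of motifs common in promoters, CCAAT (8.18% of all probes) was present in 2 probes of Rbbp7, and CGGCGGC (0.151%) in 1 of Lypla1. GGGCGG (0.660%), CCGGAAG (0.268%), CACGTG (0.499%) and AAGATGGC (0.258%) were in none. The probes cover only part of the DNA under each peak, and a match is a description of these letters. No called probe shared a stretch of 25 bases with any other probe, on either strand.

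The genes nearest to these by height and composition were taken as the next 10 highest with a set of at most 60% GC, called with measured spots. They had 9 sets, since Cops3 and Nt5m shared one, with set means from 2.94 to 3.26 and GC contents from 40.8% to 59.2%. Rif1 (3.11 ± 0.41), which encodes a protein of replication timing and DNA repair, Pdgfa (3.04 ± 0.93), a growth factor gene, and Gbx2 (3.00 ± 1.22), a homeobox gene, had 3 probes each. D10Ucla1, now Reep3, stood at 3.02 ± 0.53 and came closest to Grsf1 in GC content among those with 3 probes, at 43.8%, with a width of 1021 bp. Rapgef1 (3.01 ± 2.37), Eif5 (2.95 ± 1.05) and B3bp, now N4bp2 (2.94 ± 0.93), completed the sets of 3 probes. Cops3 with Nt5m (3.26 ± 2.52) and Ceacam11 (3.10 ± 0.87) rested on 2 probes. On the same measured spots Grsf1 reached 4.16, Mllt6 3.49, Tcfe3 3.41 and Rbbp7 3.34, all above these 10 as follows from the choice. For Tcfe3 and Rbbp7 this order rests on sets of 2 probes at the edge of the tiling. With all spots their full sets of 3 probes next to the edge (2.74 and 2.59) lay below those of the 10 with 3 probes, of which Eif5 was lowest at 2.76. Lypla1 at 3.20 lay below Cops3 with Nt5m. This Lypla1 set (chr1:4803465-4804068, 60.4% GC) leaves out the surrogate probe at 357.5 bp and includes the probe at 551.5 bp. With all spots Lypla1 stood at 2.99, above Cops3 with Nt5m (2.41) and Ceacam11 (2.16) and below Rif1 (3.07) and Pdgfa (3.00). The Cops3 set had a median input of only 99.2 units.

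The 3 highest genes with GC-rich sets were lower once measured spots had their GC trend removed. Foxe1, a forkhead gene with a set of 69.6% GC, stood at 2.48 with and 3.77 without the subtraction. Nptxr, a neuronal pentraxin receptor gene (71.1% GC), stood at 2.23 and 3.35, and Nrxn2, a neurexin gene (69.6% GC), at 2.33 and 3.34. Lypla1, with its measured-spot set of 60.4% GC, moved in the same direction, with 2.34 and 3.20. The same held for Rif1 (2.72 and 3.11), Rapgef1 (2.34 and 3.01) and Eif5 (2.46 and 2.95), whose sets have between 53.9% and 59.2% GC. Pdgfa (2.91 and 3.04, 48.5% GC) and Gbx2 (2.93 and 3.00, 47.0% GC) were also lower, at a GC content close to that of Mllt6. These 2 genes are on array 1 and Mllt6 is on array 2, and each array had its own bin medians. Grsf1 (4.35 and 4.16), Mllt6 (3.60, from a set of 43.4% GC, and 3.49) and Tcfe3 (3.63 and 3.41) were higher with the subtraction. So were Cops3 with Nt5m (3.36 and 3.26), Ceacam11 (3.38 and 3.10), Reep3 (3.15 and 3.02) and N4bp2 (3.05 and 2.94), with sets from 40.8% to 52.4% GC. Rbbp7 was lower (2.97 and 3.34). There is no replicate, and these shifts are not separate measurements. They follow from the GC content of the probes, the bin medians of the array and any change of set.

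**Figure D4:**
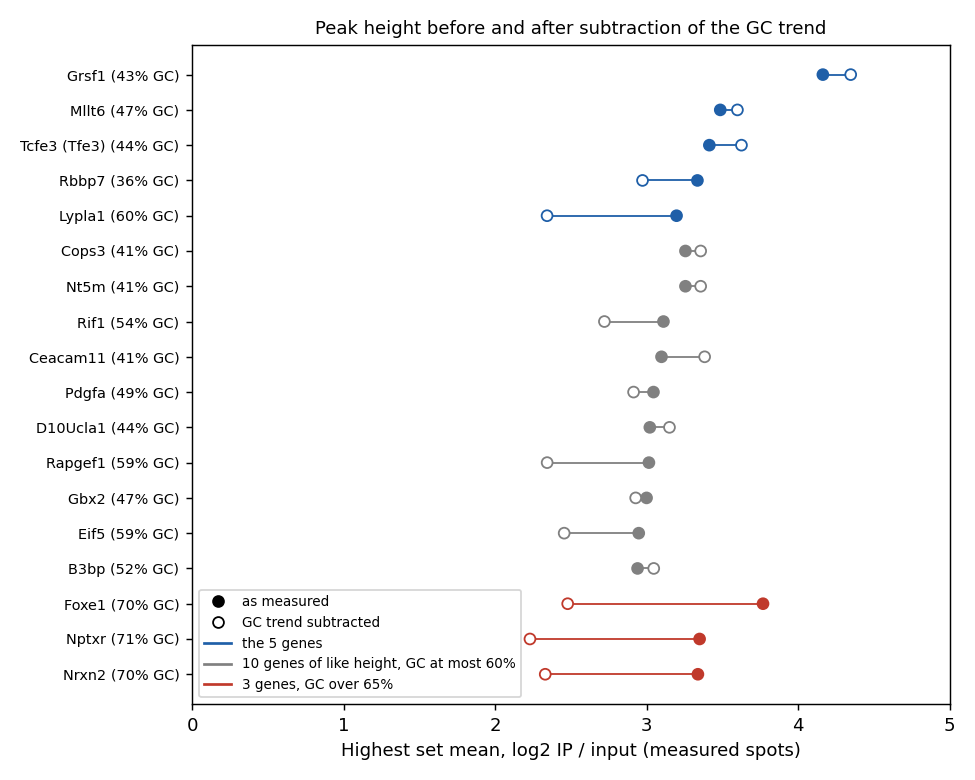
Highest set mean (horizontal axis, log2 immunoprecipitate over input) from spots measured in both channels, as measured (filled) and with the GC trend subtracted (open), for the 5 genes, 10 genes of like height with at most 60% GC and 3 genes with over 65% GC. Grsf1, Mllt6 and Tcfe3 shift to the right, as do Cops3, Nt5m, Ceacam11, D10Ucla1 and B3bp among the 10. Rbbp7 and Lypla1 shift to the left, as do Foxe1, Nptxr and Nrxn2 and, among the 10, Rif1, Pdgfa, Rapgef1, Gbx2 and Eif5.

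Relatives and partners of the 5 proteins were called at about the share of all genes. Of 26 genes listed, 23 were found on the arrays by name (Hnrnph3, Fnip2 and Mta2 were not analysed here) and 4 were called (17.4%, against 15.2% of all genes), and their median height was 1.20 against 1.15 over 17034 genes with a set. Called were Hnrnpf (1.68 ± 0.87), a relative of Grsf1 that also binds G-rich RNA, and Mllt3 (1.75 ± 0.51, with 2 surrogate values), the gene of the MLL partner AF9. Also called were the relatives of Tfe3 named Mitf (2.00 ± 0.15, with 2 surrogate values) and Tfec (2.03 ± 0.08, from 2 surrogate values only), neither of which was called with measured spots. With measured spots 4 of the 23 were called again, but these were Hnrnpf, Mllt3, Fnip1 and Hnrnph1. With the GC trend subtracted as well they were Mllt3, Hnrnph1, Mitf and Lyplal1, against 14.3% of all genes, while Hnrnpf and Fnip1 were not called. With all spots the highest uncalled genes were Fnip1 (1.62 ± 1.21), which acts with folliculin on Tfe3, Eed (1.56 ± 0.27), a Polycomb partner of Rbbp7, and Hnrnph2 (1.49 ± 0.13, from 3 surrogate values). The paralogs Mllt10 (1.42), Rbbp4 (1.47) and Lypla2 (0.48) were not called either.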

How the data were processed

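The authors' scanner software was version 9.1.1.1 of Feature Extraction (Agilent), per the file headers. The deposited intensity of each channel was background-subtracted, corrected with a fitted trend signal and scaled by 1 dye factor, per the file headers, with a surrogate where it was not above background. The deposited log10 ratio is Cy5 over Cy3, per the file headers. Here log2 ratios of processed intensity were centred on the median of each array, leaving out 9 and 18 non-uniform spots. The spread of values below the median gave a scale of 0.72 (array 1) and 0.78 (array 2). A set is a probe with its neighbours within 1000 bp. Upper-tail normal probabilities on this scale served as a calling rule only. Calls needed a set mean below 0.001, together with a centre probe below 0.001 beside a neighbour below 0.1, or else 2 probes below 0.005. The rule was tested on simulated data at the 474380 positions. Alternatives changed the signal, background correction (limma 3.58.1), GC trend, spots and distance. The genes, the motifs and the lists were chosen with earlier results of these data known. Named genes are the 5 members, the 10 nearest by height among genes of at most 60% GC, 3 genes over 65% GC, and from the list of relatives all called and the 3 highest uncalled genes. The relatives Mllt10, Rbbp4, Lypla2, Hnrnph1 and Lyplal1 were named after their values were seen.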

Additional observations from a re-analysis of the deposited data

How the results depend on the processing

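All 5 genes stayed called in each of the 10 alternatives for height and the 3 for the calling rule. This follows from their choice by height, and in these settings between 1514 and 10367 of 17177 genes were called. Heights ranged from 3.10 to 4.48 in Grsf1, 2.90 to 4.07 in Mllt6, 2.29 to 3.998 in Tcfe3, 2.66 to 3.92 in Rbbp7 and 1.61 to 3.34 in Lypla1. The lowest values came from subtracting the intensity trend (Grsf1, Mllt6), leaving out marked spots (Tcfe3) and subtracting the GC trend (Rbbp7, Lypla1). At a fixed level of 1 the width was 1325 bp in Grsf1 and 1361 bp in Mllt6, and with single-probe values that of Lypla1 was 493 bp. The 2607 of 17177 genes called became 1514 with the log10 ratio column, 9100 with normexp and 10367 with the intensity trend subtracted. Before dye normalization they were 4271 of 17174. The cause was not tested. Leaving out an array was not possible because each gene is on 1 array. No paired analysis was possible because there is 1 group. Dim immunoprecipitate signals limit values in lower-GC DNA: 11 of 34 probes of Grsf1, 17 of 35 of Rbbp7, 8 of 27 of Tcfe3, 8 of 21 of Lypla1 and 2 of 37 of Mllt6 were surrogates.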
